A study of Homo sapiens with 6 samples.

Results

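Replication-dependent histone genes code for the bulk histones that package newly copied DNA. HaCaT cells, human skin keratinocytes that became immortal in culture on their own, were measured in 2 states. In the first, 3 cultures spent 12 h in a chamber under a negative pressure gradient of 125 mmHg, and in the second, 3 cultures spent 12 h at ambient pressure. The labels call the 3 samples of each group biological replicates, and no transgene, deletion or drug treatment is named for either group. All cultures were of this 1 line, so the values describe that line alone. Each sample's total RNA was hybridised to an Affymetrix array of 54675 probe sets, of which 54613 were tested after 62 control sets were left out. The histone genes were chosen by symbol alone: H1-1 to H1-6, or H2AC, H2BC, H3C or H4C followed by a number. Nearly all of them are genes once named HIST1, HIST2 and HIST3. Of 69 RefSeq genes with such a symbol, 42 had a probe set of their own, and these had 48 sets among the 54613 tested. Another 19 genes were seen only by sets that several genes share, and 8 (H2AC1, H2AC20, H2AC21, H2BC18, H2BC26, H3C13, H3C14 and H3C15) had no set named here and were not analysed here. The 48 sets cover 6 H1, 8 H2A, 13 H2B, 7 H3 and 8 H4 genes, and 20 shared sets are described apart.

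Copies of H2A, H2B, H3 and H4 form the nucleosome core around which DNA winds, and H1 binds the DNA between cores. The replication-dependent genes chosen here lie in clusters on chromosomes 6 and 1, except H4C16 on chromosome 12, which only shared sets read. Such genes are used mainly in S phase and have no introns. Their mRNAs are unusual in ending in a stem-loop instead of a poly(A) tail, although some of these genes also give polyadenylated transcripts. In skin they are active in the dividing keratinocytes of the basal layer. The labels name only a standard Affymetrix labelling procedure, so whether tailless transcripts were labelled as well as tailed ones is not given in the sources used here.

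Under negative pressure, sets of 2 histone genes were called higher, those of H2AC6 (2.37-fold) and H2BC5 (1.96-fold). No set of the 42 genes fell past the threshold. H2BC5's other set had a log2 change of 0.04, and both called sets carry marks for probes that may read other transcripts. These 2 of 48 sets (4.17%) stand beside 0.276% of all sets called higher, and the 0 lower beside 0.203% of all sets called lower. H2AC6 codes for an H2A and H2BC5 for an H2B, the partners of the H2A-H2B dimer. No H1, H3 or H4 gene had a set of its own that passed the test, though 1 set shared by H3 genes did. The median log2 change of the 48 sets was 0.01, and that of all 54613 sets was 0.01. Sets with changes above 0 numbered 26, and sets with changes below 0 numbered 22. The threshold here and below is an adjusted p under 0.05 from limma, with Benjamini-Hochberg adjustment over all 54613 sets. Every change is a log2 difference, negative pressure minus ambient pressure.

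At an unadjusted p under 0.05 in the same limma fit, 5 histone sets (10.4%) were higher, beside 5.55% of all sets, and 2 (4.17%) were lower, beside 4.31%. With the replicate number as a block, 4 sets were called higher (H2AC6, H2BC5, H2BC21 and H2AC25), beside 1.15% of all sets, and 0 were called lower, beside 1.12%. A further fit represented each gene by 1 set, that of highest mean signal among those naming it alone, and adjusted 19775 genes together. For H2BC5 this was the called set, so the set at 0.04 did not enter. Limma then called 3 of the 42 histone genes higher (H2AC6, H2BC5 and H2BC21), beside 0.607% of all genes. It called 0 lower, beside 0.314%. In 6 sets (12.5%) every negative pressure array lay above every ambient array, beside 8.44% of all sets. These were the sets of H2AC6, H2BC5, H2BC21, H2AC25, H2AC8 and H2BC11. In 3 sets (6.25%), of H2AC14, H2BC12 and H3C6, every negative pressure array lay below every ambient array, beside 6.56% of all sets. Both shares are near those of all sets.

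**Figure D1:**
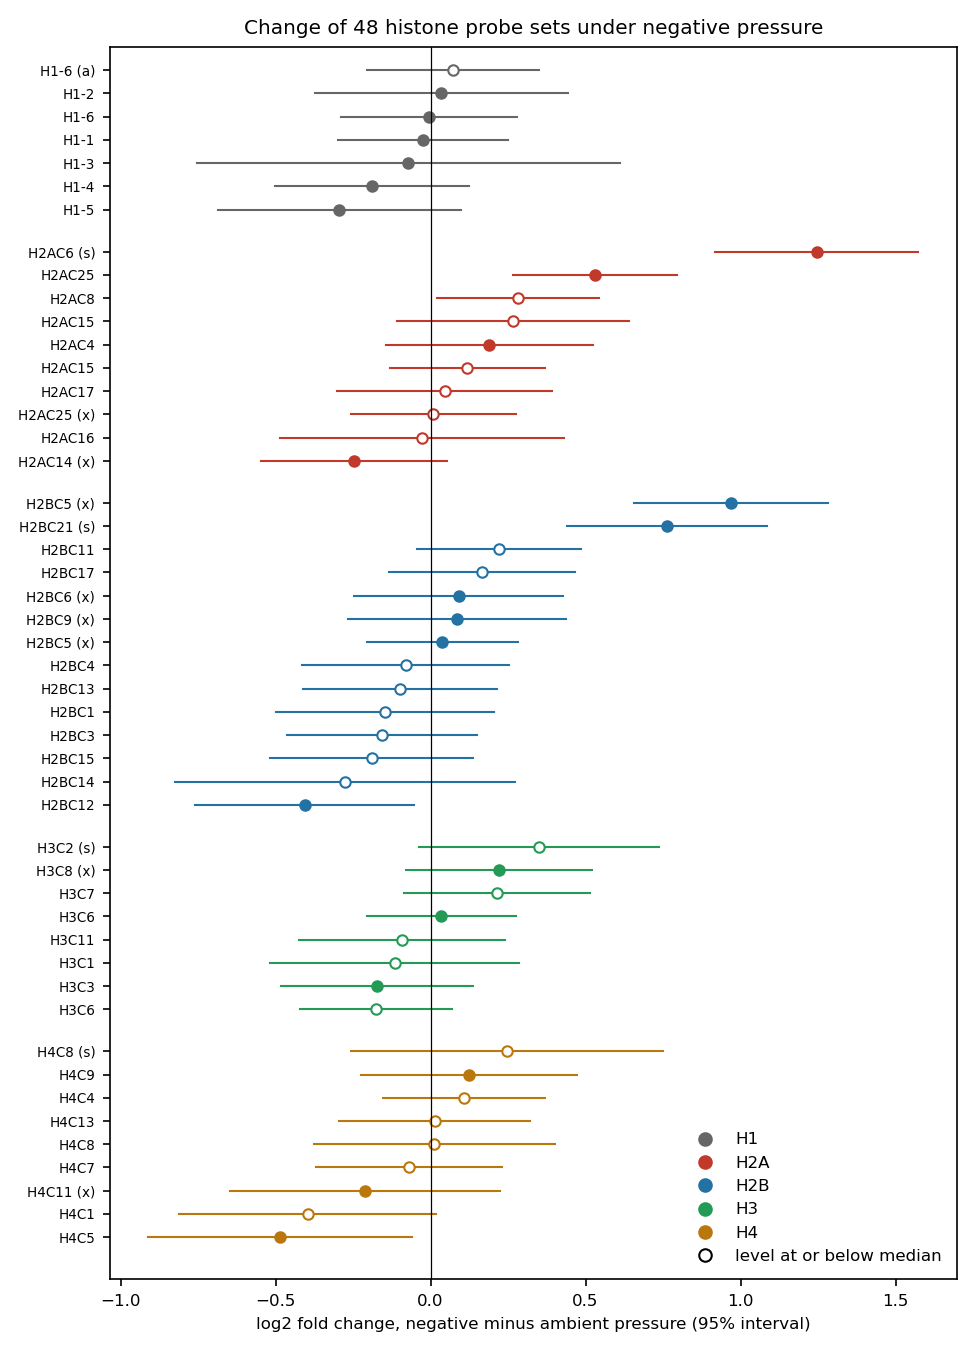
Log2 fold change (negative minus ambient pressure, horizontal axis) of each of the 48 histone probe sets, grouped by histone class, with its 95% interval from limma. Open points have a mean signal at or below the median of all sets, and letters in brackets mark a, s and x sets. H2AC6 (1.25), H2BC5 (0.97), H2BC21 (0.76) and H2AC25 (0.53) stand to the right, while the other H2BC5 set lies at 0.04.

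Several facts about the arrays bear on every value. The replicate 3 arrays of both groups stood apart on the first principal component (40.4% of the variance), at 46.8 under negative pressure and 40.0 at ambient pressure, with the other 4 arrays between -24.4 and -14.8. The second component (28.8%) separated the groups. All 6 measured keratinocyte markers had a mean signal above the median of all sets (3.84), and 0 of them passed the main test. DSG3 differed by 0.63 (limma adjusted p = 0.190) and passed with the replicate block (adjusted p = 0.0383). The groups of DSG3 and KRT5 (0.33) did not overlap. Of the 6 changes, 4 lay above 0 and 2 below. The log2 summed level of the 6 markers was 13.9 to 14.0 under negative pressure and 13.8 to 13.9 at ambient pressure. Of the other cell types' markers, 2 of 7 fibroblast, 3 of 6 melanocyte, 3 of 6 leukocyte and 5 of 6 endothelial genes had a signal above that median. Log2 summed marker levels under negative and at ambient pressure were 7.39 to 7.46 and 7.32 to 7.66 for fibroblasts, and 6.40 to 6.64 and 6.33 to 6.55 for leukocytes. They were 7.15 to 7.26 and 7.07 to 7.11 for melanocytes, and 6.76 to 6.83 and 6.86 to 7.16 for endothelial cells. Among all these markers 1 passed the main test, CDH5, which fell by 0.80 (limma adjusted p = 0.0492). The 3′ minus 5′ signal of ACTB, a measure of RNA integrity, was 0.69 ± 0.24 under negative pressure and 0.54 ± 0.25 at ambient pressure (SD, n = 3 each; two-sided exact permutation p = 0.5, smallest possible 0.1). For GAPDH it was 0.10 ± 0.06 under negative pressure and 0.18 ± 0.03 at ambient pressure (SD, n = 3 each; two-sided exact permutation p = 0.2). The part of these features in the histone values was not tested. Fewer cells using a gene and less RNA per cell cannot be told apart in bulk RNA.

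H2AC6 had log2 signals of 6.58, 6.65 and 6.34 under negative pressure, against 5.48, 5.29 and 5.06 at ambient pressure. The lowest negative pressure array lay well above the highest ambient array, so the groups did not overlap. The means were 6.52 ± 0.16 under negative pressure and 5.27 ± 0.21 at ambient pressure (SD, n = 3 each). The difference was 1.25 (SE 0.15, 95% interval 0.92 to 1.57; limma adjusted p = 0.0209), and without both replicate 3 arrays it was 1.23. Its set carries Affymetrix's s mark, which says that its probes match more than 1 transcript. Leaving out 1 array kept the change between 1.14 and 1.35. The limma adjusted p then missed the threshold without replicate 1 or 2 of negative pressure (0.104 and 0.114) or of ambient pressure (0.0768 and 0.149), and passed it without replicate 3 of negative (0.0222) or ambient pressure (0.0457). In those first 4 fits limma called only 8, 1, 6 and 1 of the 54613 sets.

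H2BC5 was read by a pair of sets that disagreed. The set 209911_x_at had log2 signals of 7.13, 7.00 and 6.76 under negative pressure, against 6.02, 5.83 and 6.13 at ambient pressure. All 3 negative pressure arrays lay above all 3 ambient arrays. The difference was 0.97 (SE 0.14, 95% interval 0.65 to 1.28; limma adjusted p = 0.0303), and 1.14 without both replicate 3 arrays. The set 222067_x_at had 5.88, 5.97 and 5.85 under negative pressure, against 5.86, 5.89 and 5.84 at ambient pressure. There the groups overlapped, and the change was 0.04 with a 95% interval of -0.21 to 0.28 (limma adjusted p = 0.963). Within arrays, the first set exceeded the second by 1.06 ± 0.17 under negative pressure and by 0.13 ± 0.18 at ambient pressure (SD, n = 3 each). The groups did not overlap (two-sided exact permutation p = 0.1, the smallest that 3 against 3 arrays can give). With the first set called and the second flat, that outcome was nearly fixed beforehand and adds no separate support. Both sets carry the x mark, which says that some probes may also bind other sequences. A rise of the gene therefore rests on 1 of its 2 sets. Leaving out 1 array kept the first set's change between 0.89 and 1.07. Its limma adjusted p stayed under the threshold without replicate 3 of negative pressure (0.0294). It was 0.122, 0.155, 0.138, 0.183 and 0.0559 without replicate 1 or 2 of negative pressure or replicate 1, 2 or 3 of ambient pressure.

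H2BC21, an H2B gene of the larger chromosome 1 cluster, had log2 signals of 4.86, 4.56 and 4.70 under negative pressure, against 4.10, 4.02 and 3.71 at ambient pressure. The groups did not overlap. The difference of 0.76 (SE 0.14, 95% interval 0.44 to 1.08) missed the threshold over all sets (limma adjusted p = 0.0655). It passed with the replicate block (adjusted p = 0.0173) and with 1 set per gene (adjusted p = 0.0455). H2AC25, an H2A gene farther along chromosome 1, had 7.08, 7.02 and 7.19 under negative pressure, against 6.46, 6.57 and 6.67 at ambient pressure in the set 221582_at. These groups did not overlap either. The difference was 0.53 (SE 0.12; limma adjusted p = 0.109), and it passed only with the replicate block (adjusted p = 0.0437) among these fits. The gene's other set, marked x and with a signal below the median of all sets, differed by 0.01. Of the 3 chromosome 1 sets, 2 thus had non-overlapping groups. Negative pressure was higher in both, beside 8.44% of all sets and 12% of those above the median signal. Neither gene passed the main test.

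**Figure D2:**
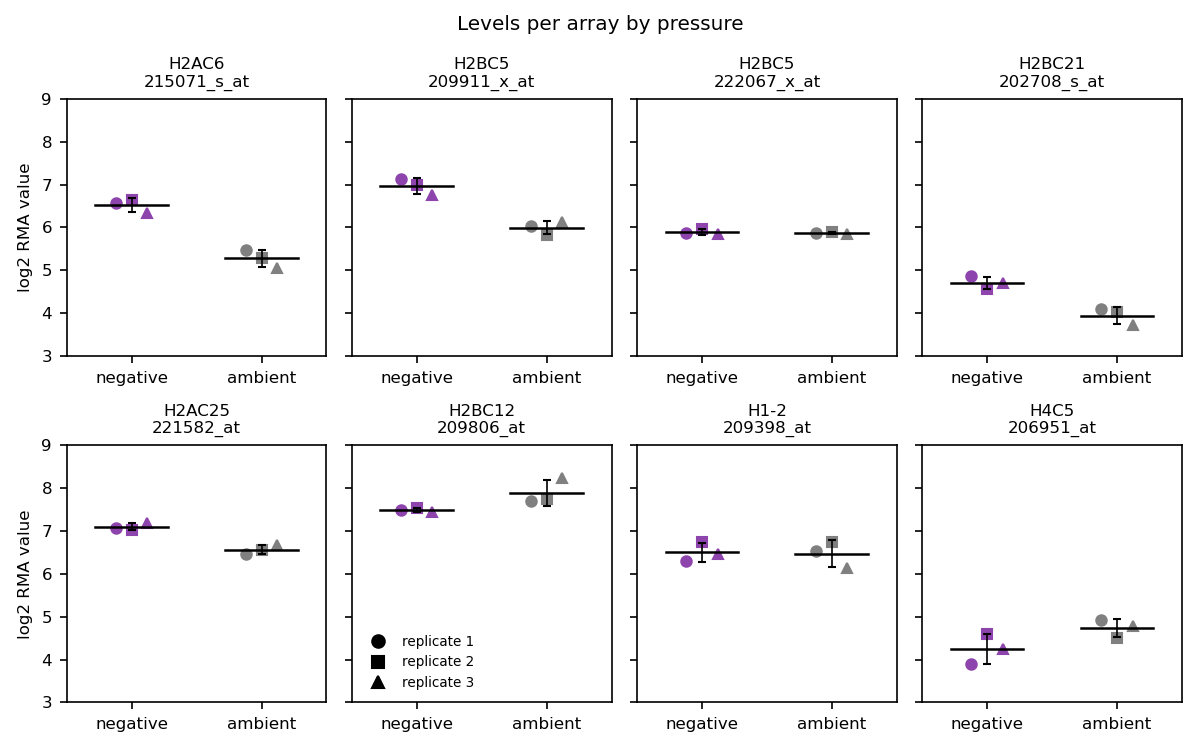
Log2 RMA value (vertical axis, from 3 to 9) on each of the 6 arrays for 8 histone probe sets, negative pressure left and ambient pressure right. Symbols give the replicate, and bars the mean and SD of 3 arrays. H2AC6, the first H2BC5 set, H2BC21 and H2AC25 have separate groups, with negative pressure higher. H2BC12 has separate groups with negative pressure lower, and the second H2BC5 set, H1-2 and H4C5 overlap.

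The promoters of these 4 genes, and of H2BC12 as a gene with the opposite sign, are shown because their shared letters are those known from histone promoters. H2BC21, H2AC25 and H2BC12 were added after their values were seen. Each window runs from 250 bases before the gene's start to 50 after it, on the gene's strand, from RefSeq on GRCh38.p14. The windows are chr6:26123922-26124221 (plus strand) for H2AC6, chr6:26157871-26158170 (plus strand) for H2BC5 and chr1:149886633-149886932 (minus strand) for H2BC21. Those of H2AC25 and H2BC12 are chr1:228457824-228458123 and chr6:27146806-27147105, both on the minus strand. Capitals mark every match, on either strand, to the TATA box TATAAA, the CCAAT box CCAAT, the octamer ATTTGCAT that OCT1 binds, the H1 box AAACACA and GGTCCG from the H4 promoter element.
H2AC6: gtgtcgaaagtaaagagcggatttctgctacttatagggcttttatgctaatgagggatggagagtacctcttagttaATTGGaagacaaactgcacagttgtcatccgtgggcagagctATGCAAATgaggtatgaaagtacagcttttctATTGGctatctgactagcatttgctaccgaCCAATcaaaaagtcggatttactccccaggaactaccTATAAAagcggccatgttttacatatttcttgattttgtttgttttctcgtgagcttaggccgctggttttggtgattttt
H2BC5: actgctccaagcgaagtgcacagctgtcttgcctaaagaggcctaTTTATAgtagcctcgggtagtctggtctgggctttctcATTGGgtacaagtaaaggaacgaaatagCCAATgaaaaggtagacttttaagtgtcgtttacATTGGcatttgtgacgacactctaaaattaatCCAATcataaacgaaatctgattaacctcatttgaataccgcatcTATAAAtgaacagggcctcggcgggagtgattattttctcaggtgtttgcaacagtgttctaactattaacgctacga
H2BC21: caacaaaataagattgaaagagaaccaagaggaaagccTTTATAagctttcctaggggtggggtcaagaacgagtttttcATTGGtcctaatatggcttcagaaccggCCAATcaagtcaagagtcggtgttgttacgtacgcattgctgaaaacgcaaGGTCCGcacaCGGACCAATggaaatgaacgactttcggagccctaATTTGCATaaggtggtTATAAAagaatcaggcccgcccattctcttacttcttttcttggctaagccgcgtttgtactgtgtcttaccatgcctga
H2AC25: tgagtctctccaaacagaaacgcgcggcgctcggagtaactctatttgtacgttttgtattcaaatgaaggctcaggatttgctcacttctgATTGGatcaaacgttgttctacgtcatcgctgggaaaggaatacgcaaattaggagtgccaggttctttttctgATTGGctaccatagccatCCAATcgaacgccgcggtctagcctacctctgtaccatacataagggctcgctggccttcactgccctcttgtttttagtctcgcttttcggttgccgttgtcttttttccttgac
H2BC12: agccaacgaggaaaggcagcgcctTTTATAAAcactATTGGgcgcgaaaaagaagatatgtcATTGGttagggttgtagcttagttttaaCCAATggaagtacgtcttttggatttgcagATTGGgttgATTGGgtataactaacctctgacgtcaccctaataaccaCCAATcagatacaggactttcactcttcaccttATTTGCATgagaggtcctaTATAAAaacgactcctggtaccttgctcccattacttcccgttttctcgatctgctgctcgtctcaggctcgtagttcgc
In H2AC6, H2BC5, H2BC21 and H2BC12 a TATAAA began between positions -31 and -28, counted from the start of the gene, while the H2AC25 window held none. All 5 windows held at least 3 CCAAT boxes. The octamer was present in H2AC6 on the reverse strand, from -130 to -123. In H2BC21 and H2BC12 it was on the gene's strand, beginning at -46 and -49. It was absent, in these letters, from H2BC5 and H2AC25. In H2BC21 one GGTCCG on the reverse strand overlaps a CCAAT, and in H2BC12 a TATAAA on each strand overlap. The part of these motifs in the changes of the genes was not tested.

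Across the 64 histone genes with a promoter in the RefSeq table, the motifs followed histone class. TATAAA was in 67.2% of the 64, beside 12.1% of 27305 promoters of all genes, and CCAAT in 84.4%, beside 35.6%. Every H1, H2A, H2B and H3 promoter held CCAAT, against 23.1% of H4 promoters. The octamer was in 39.1% of the 64, beside 1.82% of all promoters. It was in 14 of 18 H2B and 11 of 16 H2A promoters, and in 0 of the H1, H3 and H4 promoters. AAACACA was in 6 of 6 H1 promoters (14.1% of the 64, beside 5.78% of all), and GGTCCG in 12 of 13 H4 promoters (23.4% of the 64, beside 11% of all). These are matches of letters, not measured binding. Of the 11 H2A promoters with the octamer, 8 belong to a gene that faces an H2B gene head to head, so the window of each also holds most of its partner's.

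Such head-to-head H2A and H2B pairs among these 64 genes numbered 11, 9 on chromosome 6 and 2 on chromosome 1, with starts 194 to 248 bases apart. Genes with no promoter in the table, H2AC12 among them, could not be paired. Both genes had sets of their own in 4 pairs. H2AC6 (1.25) faces H2BC4, whose signals were 2.38, 2.51 and 2.84 under negative pressure and 2.59, 2.56 and 2.82 at ambient pressure. H2BC4's groups overlapped, with a change of -0.08, but its signal lay below the median of all sets. In the other 3 pairs the changes were -0.25 for H2AC14 and -0.28 for H2BC14, 0.12 and 0.27 for H2AC15's sets and -0.19 for H2BC15, and 0.05 for H2AC17 and 0.17 for H2BC17. None of those passed the test. H2BC21 faces H2AC20 and H2AC25 faces H2BC26, neither of which was analysed here.

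On chromosome 6, H2AC6 and H2BC5 lie near each other with H1-4 between them. Their neighbours among the measured genes did not pass the test, with H2BC4 at -0.08, H1-4 at -0.19 and H2BC6 at 0.09. The 45 sets on chromosome 6, from 40 genes, had a median change of 0.01, and 2 were called higher. The 3 sets on chromosome 1, from H2BC21 and H2AC25, had a median of 0.53, and 0 were called. With so few sets on chromosome 1, no test of a difference between the clusters was made.

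**Figure D3:**
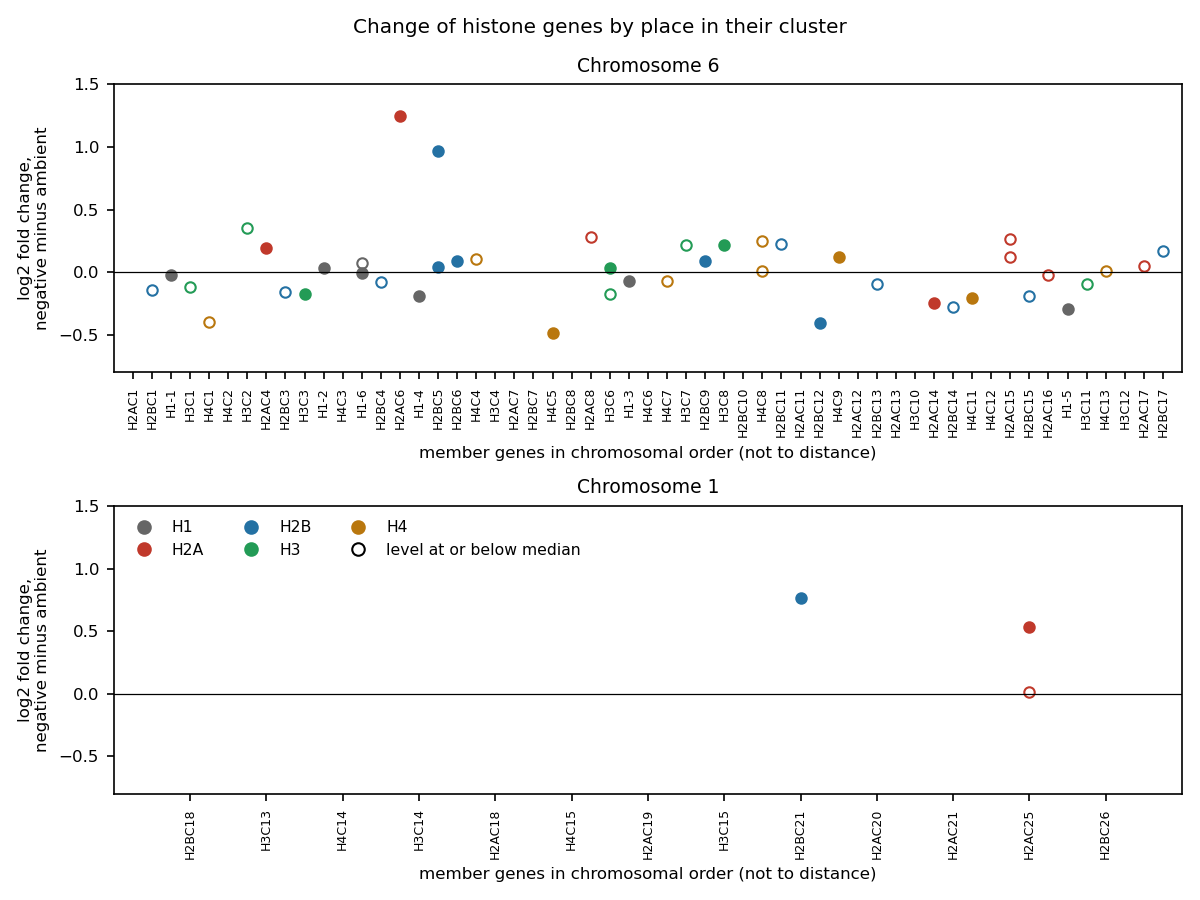
Log2 fold change (negative minus ambient pressure, vertical axis) of each histone probe set against its gene's place in the order along chromosome 6 (top) and chromosome 1 (bottom), spaced evenly. Colours give the histone class, open points a signal at or below the median, and names with no point genes with no set of their own. The called sets of H2AC6 (1.25) and H2BC5 (0.97) sit on either side of H1-4 (-0.19).

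By class, the 10 H2A sets had a median change of 0.15, with 1 called higher, and 8 of 10 lay above 0. H2AC14, marked x, went the other way, with 6.87, 7.05 and 6.64 under negative pressure against 7.09, 7.16 and 7.05 at ambient pressure. Its groups barely separated, and its change of -0.25 did not pass (limma adjusted p = 0.630). H2AC8 had non-overlapping groups at a signal below the median of all sets, with a change of 0.28 (limma adjusted p = 0.458). The remaining H2A sets, of H2AC4, H2AC15, H2AC16 and H2AC17, differed by -0.03 to 0.27.

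The 14 H2B sets had a median change of -0.02, with 1 called higher. H2BC12 had log2 signals of 7.48, 7.53 and 7.45 under negative pressure, against 7.70, 7.74 and 8.24 at ambient pressure. The groups did not overlap, but the gap was small and replicate 3 at ambient pressure stood above the rest. The change of -0.41 (SE 0.16; limma adjusted p = 0.412) did not pass, and without both replicate 3 arrays it was -0.21. H2BC6 and H2BC9, both marked x, differed by 0.09 each. The H2B sets of H2BC3, H2BC11, H2BC13, H2BC14, H2BC15 and H2BC17 differed by -0.28 to 0.22. Of the H2B sets, 8 had a signal at or below the median of all sets, including that of H2BC1, a gene used in testis, which differed by -0.15.

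None of the 7 H1 sets passed (median -0.02), and at an unadjusted p under 0.05 there were 0 in either direction. H1-2, a linker histone made in most cells, had 6.30, 6.74 and 6.47 under negative pressure, against 6.53, 6.74 and 6.13 at ambient pressure. Those groups overlapped fully, with a change of 0.04 and a 95% interval of -0.37 to 0.44. H1-4 had 4.42, 4.87 and 4.60 under negative pressure, against 4.77, 4.78 and 4.91 at ambient pressure (change -0.19). H1-5 had 3.56, 3.94 and 4.27 under negative pressure, against 4.25, 4.14 and 4.28 at ambient pressure (change -0.29). In both linker histones 1 or more negative pressure arrays lay within the ambient range. H1-3 had the widest interval of the class, -0.75 to 0.61 around -0.07. H1-6, the testis form of H1, had sets at 0.07 and -0.01, and H1-1 stood at -0.02.

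The 8 H3 sets had a median change of -0.03 and the 9 H4 sets one of 0.01, with 0 called in either direction by limma. At an unadjusted p under 0.05 there were 0 H3 sets, and 1 H4 set, H4C5, was lower. H4C5 had 3.90, 4.61 and 4.25 under negative pressure, against 4.92, 4.51 and 4.78 at ambient pressure. The groups overlapped, and the change of -0.48 had a limma adjusted p of 0.420. Among the H3 genes, H3C8 had 4.80, 5.04 and 5.17 under negative pressure, against 4.85, 4.84 and 4.66 at ambient pressure, a change of 0.22. H3C3 had 4.29, 4.01 and 4.34 under negative pressure, against 4.39, 4.23 and 4.53 at ambient pressure, a change of -0.17. Both pairs of groups overlapped. H3C2, at a signal below the median of all sets, stood at 0.35, and H3C6's pair of sets at 0.03 and -0.18. H4C9 had 5.06, 5.32 and 5.39 under negative pressure, against 4.97, 5.03 and 5.41 at ambient pressure (change 0.12). H4C11, marked x, had 5.12, 5.30 and 4.51 under negative pressure, against 5.20, 5.25 and 5.12 at ambient pressure (change -0.21). The low value of H4C11 is that of replicate 3 under negative pressure, and the change was 0.02 without it. H4C1 differed by -0.40 at a signal below the median of all sets (limma adjusted p = 0.536). The H3 sets of H3C1, H3C7 and H3C11 stood between -0.12 and 0.21, and the H4 sets of H4C4, H4C7, H4C8 and H4C13 between -0.07 and 0.25.

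The called sets carry the s mark (1 of 4 such sets) and the x mark (1 of 8), and 0 of the 35 sets with neither mark nor the a mark were called by limma in the main fit. At an unadjusted p under 0.05, 2 of those 35 were higher (H2AC8 and H2AC25) and 2 were lower (H2BC12 and H4C5), and with the replicate block 1 was called (H2AC25). Each of these 2 is 5.71% of the 35, near the 5.55% and 4.31% of all sets. Probes of marked sets may read relatives of the named gene, so the gene behind the signal of H2AC6, H2BC5 and H2BC21 is uncertain.

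Of the 20 shared sets, 1 (5%) passed, beside 0.276% of all sets called higher, and 0 were called lower, beside 0.203%. Higher at an unadjusted p under 0.05 were 6 (30%), beside 5.55% of all sets, and 0 were lower, beside 4.31%. Groups did not overlap, with negative pressure higher, in 6 (30%), beside 8.44%, and with it lower in 0, beside 6.56%. Several of the 20 read the same genes, and sets for the same genes often disagreed. The set 206110_at, which 10 H3 genes of chromosome 6 share, had log2 signals of 4.10, 4.49 and 3.89 under negative pressure, against 2.85, 3.08 and 3.22 at ambient pressure. The groups did not overlap, and the difference was 1.11 (SE 0.17; limma adjusted p = 0.0355), at a mean signal of 3.61, below the median of all sets. Another set for the same 10 genes, 214646_at, differed by 0.03 with overlapping groups (limma adjusted p = 0.984). The 7 H3 genes with sets of their own are all among those 10, and their sets differed by -0.18 to 0.35. The set 207156_at, which 6 H2A genes share, had 6.07, 5.68 and 5.26 under negative pressure, against 4.97, 5.04 and 4.79 at ambient pressure. Its difference of 0.74 missed the threshold (limma adjusted p = 0.180) and passed with the replicate block (adjusted p = 0.0294). The other set for those 6 genes, 214542_x_at, differed by -0.28 with overlapping groups (limma adjusted p = 0.672). Of 3 sets for H2AC18 and H2AC19, H2A genes of the same chromosome 1 cluster as H2BC21, 2 had non-overlapping groups at 0.23 and 0.39, and the other overlapped at -0.01. None of the 3 passed. The 5 sets that the same 14 H4 genes share differed by -0.31, -0.04, 0.06, 0.06 and 0.35. The groups of the set at 0.35 did not overlap (limma adjusted p = 0.387), and those of the other 4 did. Both sets of H2BC8 and H2BC11 stood above 0, at 0.38 and 0.64, without passing. The remaining 6 shared sets stood between -0.12 and 0.12.

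None of the measured factors that make histone mRNA passed the main test. RNU7-1, the RNA of the processing particle, and POU2F1, which codes for OCT1, were not analysed here. Of 15 measured genes of stem-loop 3′ end formation, limma called 0, with 0 at an unadjusted p under 0.05 and a median change of -0.06. SLBP, which binds the stem-loop, differed by -0.23 (limma adjusted p = 0.736), and ZNF473, a part of the processing complex, by 0.25. Of 10 transcription factors of histone genes and their activators, 0 were called (median -0.06). Lower at an unadjusted p under 0.05 was 1 (10%), beside 4.31% of all sets and 6.3% of those above the median signal. NPAT, the cyclin E-CDK2 target that switches on histone genes, differed by -0.17. CCNE2, a cyclin of the entry into S phase, differed by -0.65 (limma adjusted p = 0.462), with overlapping groups, and passed with the replicate block (adjusted p = 0.0206). Among 16 general poly(A) factors, 0 were called (median -0.01). Higher at an unadjusted p under 0.05 were 2 (12.5%), beside 5.55% of all sets and 8.83% of those above the median signal.

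Genes of the cell cycle were followed because replication-dependent histones depend on S phase. Of 32 S phase and DNA replication genes, limma called 0. At an unadjusted p under 0.05, 8 (25%) were lower, beside 4.31% of all sets and 6.3% of those above the median signal, and 0 were higher. Of the 32, 24 (75%) lay below 0, beside 48.5% of all sets. Their median change was -0.15, beside 0.01 for the histone sets, and -0.08 without both replicate 3 arrays. CDC45, which unwinds DNA at the fork with its partners, differed by -0.51 (limma adjusted p = 0.187). GINS4, of the same unwinding complex, differed by -0.52 and POLE2, a subunit of a replicative polymerase, by -0.43, while PCNA, the sliding clamp, stood at -0.15. Among 19 mitosis genes 0 were called, with a median of -0.07. Of these, 2 (10.5%) were lower at an unadjusted p under 0.05, beside 4.31% of all sets and 6.3% of those above the median signal.

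Histone variant genes outside the symbols chosen here were also followed, with 12 measured, 0 called and a median change of 0.05. Of the 12, 3 (25%) were higher at an unadjusted p under 0.05, beside 5.55% of all sets and 8.83% of those above the median signal. H2AJ, an H2A variant, had 8.82, 8.68 and 8.86 under negative pressure, against 8.30, 8.10 and 8.16 at ambient pressure. The groups did not overlap, and its 0.60 missed the threshold (limma adjusted p = 0.0751) but passed with the replicate block (adjusted p = 0.0280). Of 22 histone chaperones and importers, 0 were called, with a median of 0.09. Higher at an unadjusted p under 0.05 were 2 (9.09%), beside the same 5.55% and 8.83%. Those of smallest p were NAP1L4 (0.47), TONSL (0.41) and ASF1A (0.32), with limma adjusted p of 0.385, 0.396 and 0.605. Of the 22, 14 lay above 0 and 8 below, among the latter ASF1B, an H3-H4 chaperone of S phase, at -0.24. Of 18 enzymes of histone acetylation, limma called 0, with 5 (27.8%) higher at an unadjusted p under 0.05, beside 5.55% of all sets and 8.83% of those above the median signal, and a median of 0.12. KAT8, an H4 acetyltransferase (0.52), and HDAC5, a deacetylase (0.55), passed with the replicate block (adjusted p = 0.0451 and 0.0443).

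**Figure D4:**
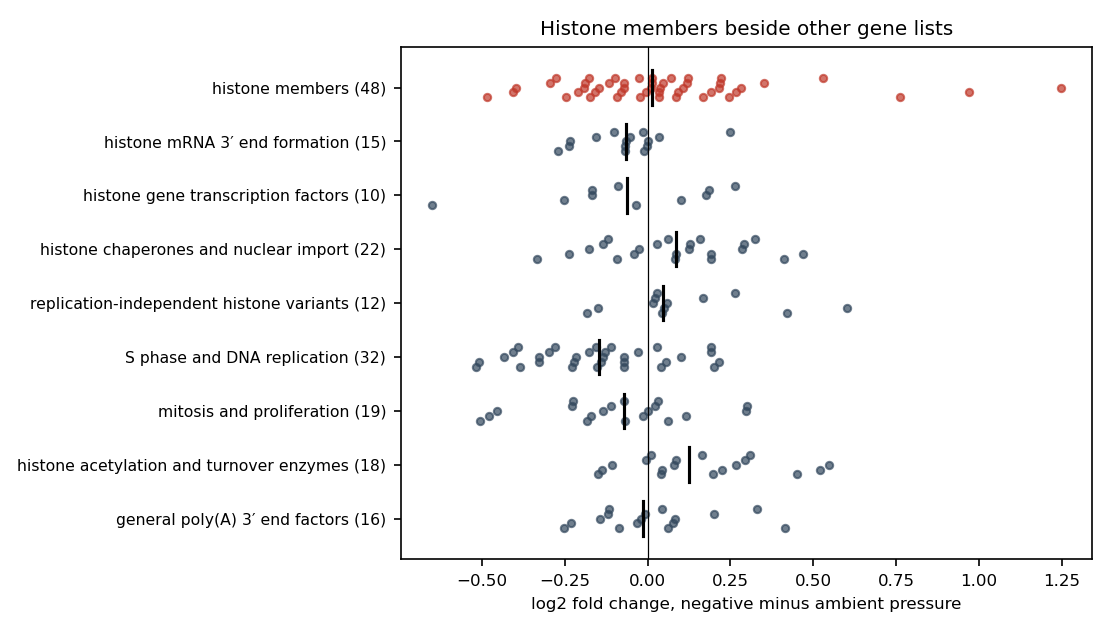
Log2 fold change (negative minus ambient pressure, horizontal axis) of the 48 histone sets and of the measured genes of 8 related lists, 1 point per set or gene, with the number in brackets and a bar at the median. The histone sets spread from -0.48 to 1.25 around 0.01, and the S phase genes from -0.52 to 0.22 around -0.15.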

How the data were processed

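Total RNA of 6 HaCaT samples, 3 under negative and 3 at ambient pressure, was measured on Affymetrix arrays. The authors deposited log2 values per probe set. These come from RMA, run in Affymetrix Expression Console 1.2 according to the submitters' processing notes. RMA corrects background and normalizes between arrays, so only changes relative to the bulk of probe sets are seen. For scan dates, filters and genome build the answer is the same, not given in the sources used here. Groups and replicate numbers came from the sample titles.

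Probe sets were named from GEO's platform annotation, which gave 41091 sets 1 symbol, 1801 several and 11721 none. All 48 histone sets matched RefSeq by gene identifier. No filter was applied. All 54613 sets entered 1 fit (lmFit, then eBayes with its default prior, 2 groups, no block) in limma 3.58.1 under R 4.3.3, with Benjamini-Hochberg adjustment over all of them. Every adjusted p comes from limma. The fit was tested on simulated data with independent noise on each array. Those data lacked the separation of the replicate 3 arrays seen here, so the simulation does not cover it. With 3 arrays per group, precision is limited by their number.

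The histone members, gene lists and naming rule were chosen with earlier results of these data known. Each gene of a list was read by its set of highest mean signal among those naming that gene alone. The rule gives array values for called members and their other sets. In each class it adds the set of highest mean and the 2 of largest change above the median signal, and in each list up to 3 genes of smallest p. Genes named beyond it (SLBP, NPAT, PCNA and ASF1B among them) were chosen after their values were seen. Deviations from the group means correlated at 0.22, 0.23 and 0.47 between arrays numbered 1, 2 and 3. Each is above 0.1, so blocked values stand beside the main ones where they change a call, while the main fit has no block. Arrays of different numbers also correlated: ambient 1 with negative pressure 2 at 0.36, and ambient 2 with negative pressure 1 at 0.15. Over the histone sets alone the values were -0.18, 0.16 and 0.12. The labels do not state a pairing, and the replicate 3 arrays stand apart. Alternatives were the replicate block, array weights, replicate 3 as a batch term or left out, 3 other normalizations, a low-signal filter, another prior, 1 set per gene, unmarked sets alone, a threshold of 0.1 and leaving out each array.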

Additional observations from a re-analysis of the deposited data

How the results depend on the processing

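Of the 48 histone sets, 2 were called higher in the main limma fit. The count was 4 with the replicate block, 4 with array weights and 4 with replicate 3 as a batch term, against 629, 797 and 966 of all 54613 sets. It was 0 among sets without the x or s mark. Leaving out 1 array gave 0 to 2 histone sets, and 1 to 134 of all sets called higher. The count of histone sets called lower was 0 under every alternative run, and the median change of the histone sets lay between -0.04 and 0.05. Reversed signs were few. H1-2 differed by -0.10 with array weights, by -0.08 without negative pressure replicate 2, by -0.13 without ambient pressure replicate 3, within -0.13 to 0.17 over the 6 arrays left out, and by -0.12 without both replicate 3 arrays. H4C11 differed by 0.024 without negative pressure replicate 3, within -0.37 to 0.024 over the 6 arrays left out. None of these passed. Over the 6 arrays left out, H2AC6 stayed between 1.14 and 1.35 and H2BC5 between 0.89 and 1.07, and their adjusted p between 0.0222 and 0.149, and between 0.0294 and 0.183. Among the fold changes of named histone sets, 240 values kept their sign and side of the threshold, 8 came past it (H2BC21 and H2AC25) and 9 lost it (H2AC6 and H2BC5, each with 1 array left out).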
